A study of Mus musculus with 28 samples.

Results

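Antigen presentation by the major histocompatibility complex (MHC) was followed through 35 genes in the ventromedial prefrontal cortex of female mice. The genes were the rows of the count files whose Ensembl identifiers carry these symbols, out of 52636 genes in all. The class I set held 24 genes and the class II set 11, and 23 of the 35 lie on chromosome 17, where the mouse MHC (H2) is found. Of the 35 genes, 30 had counts and all 30 passed the filter on low counts, 20 of class I and 10 of class II.

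RNA was sequenced from 28 individual mice, 7 in each of 4 groups. The mice had received a control virus carrying LacZ or a virus labelled as a knockdown of Slit1, which encodes a secreted axon guidance protein, and were taken without stress or at the end of 3 days of sCVS, the labels' short name for the stress. The groups were thus unstressed LacZ, stressed LacZ, unstressed knockdown label and stressed knockdown label, and all 4 had received a virus. The labels give no strain, age, type of vector or promoter, and replicate numbers below only name libraries within a group.

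MHC class I molecules sit on most nucleated cells and show peptides cut from proteins inside the cell to CD8 T cells. The peptides are made by proteasomes, pumped into the endoplasmic reticulum by the Tap1 and Tap2 transporter and loaded onto a heavy chain with the help of chaperones. MHC class II molecules are made mainly by professional antigen-presenting cells and show peptides from engulfed material to CD4 T cells, with the invariant chain Cd74 guarding the groove until cathepsin S (Ctss) and the H2-DM exchange factor clear it. In healthy brain, neurons and microglia hold little of either, and interferon gamma raises both through the transactivators Nlrc5 for class I and Ciita for class II.

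The promoter sequences of 6 members are printed because these genes carry the class I and class II values below and hold letters known from MHC promoters. RefSeq promoters of GRCm38.p6 were searched on both strands for the NF-kB letters (GGG, any 2 bases, TTCCC), the X box letters (AG, any 2, AC, any 1, GATG), the Y box letters (CCAAT), the interferon-response or ISRE letters (GAAA, any 2, GAAA) and the GAS letters (TTC, any 3, GAA). The stretches are the 250 bases before each start, 5′ to 3′ on the gene's strand, with matches to any of the searched letters in capitals. They lie at chr17:34000334-34000583 (minus strand) for H2-K1, chr17:35379367-35379616 (plus) for H2-Q4, chr17:35438905-35439154 (plus) for H2-Q7, chr17:34287824-34288073 (minus) for H2-Aa, chr17:34305617-34305866 (plus) for H2-Eb1 and chr3:95526536-95526785 (plus) for Ctss.
H2-K1: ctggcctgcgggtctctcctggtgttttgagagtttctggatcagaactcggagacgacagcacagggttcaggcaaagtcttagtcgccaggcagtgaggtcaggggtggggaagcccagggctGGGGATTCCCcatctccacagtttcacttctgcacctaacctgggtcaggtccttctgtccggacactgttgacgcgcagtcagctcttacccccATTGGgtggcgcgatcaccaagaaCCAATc
H2-Q4: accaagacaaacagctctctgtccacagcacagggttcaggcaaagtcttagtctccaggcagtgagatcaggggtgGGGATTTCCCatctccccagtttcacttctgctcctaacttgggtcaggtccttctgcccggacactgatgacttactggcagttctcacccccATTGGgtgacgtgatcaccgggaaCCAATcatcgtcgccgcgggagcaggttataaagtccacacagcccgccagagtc
H2-Q7: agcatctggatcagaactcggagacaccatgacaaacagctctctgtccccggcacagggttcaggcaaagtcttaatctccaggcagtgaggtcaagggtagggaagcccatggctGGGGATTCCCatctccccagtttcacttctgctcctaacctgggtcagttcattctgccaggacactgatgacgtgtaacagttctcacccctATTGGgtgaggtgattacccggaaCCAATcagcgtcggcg
H2-Aa: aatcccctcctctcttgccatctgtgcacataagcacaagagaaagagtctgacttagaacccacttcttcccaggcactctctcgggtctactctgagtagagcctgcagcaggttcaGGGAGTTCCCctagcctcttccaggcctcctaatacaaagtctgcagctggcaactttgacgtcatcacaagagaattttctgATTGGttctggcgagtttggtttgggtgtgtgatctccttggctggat
H2-Eb1: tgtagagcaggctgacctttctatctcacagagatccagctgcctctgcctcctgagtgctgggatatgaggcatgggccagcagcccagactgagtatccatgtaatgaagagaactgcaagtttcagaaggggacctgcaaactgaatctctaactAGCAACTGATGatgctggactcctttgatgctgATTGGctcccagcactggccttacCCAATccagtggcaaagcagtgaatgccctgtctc
Ctss: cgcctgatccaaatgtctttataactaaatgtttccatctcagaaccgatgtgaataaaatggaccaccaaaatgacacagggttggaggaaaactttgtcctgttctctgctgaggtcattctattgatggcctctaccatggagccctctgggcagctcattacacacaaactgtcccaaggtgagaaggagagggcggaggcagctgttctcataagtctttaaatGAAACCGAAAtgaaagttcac

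RefSeq promoters were found for 20 of the 24 class I and 8 of the 11 class II members, and matches were counted from 250 bases before to 50 after each start. The NF-kB letters were present in H2-K1, H2-D1, H2-Q4, H2-Q6 and H2-Q7 of class I and in H2-Aa and H2-Oa of class II, against 1.75% of 32851 promoters of the same length. In H2-K1 and H2-Q7 the NF-kB match was the same run of letters, and each of these promoters also held a Y box on either strand closer to the start. The X box letters were present in H2-Eb1, H2-DMb1 and H2-Oa and, of class I, in Psmb10, against 0.968% of all promoters. The Y box letters were common everywhere: 15 of 20 class I and 7 of 8 class II promoters had them, against 37.4% of all. ISRE letters were present in H2-T22, H2-T23, Erap1, Psme1 and Ctss, against 3.44% of all promoters. The GAS letters were present in H2-M3, Psmb8 and H2-DMb2, against 8.30% of all promoters. These matches describe letters in a window and do not show that a factor binds there.

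The 5 members without counts were H2-T23, H2-T24, Tapbpl and Psmb10 of class I and H2-Oa of class II, each listed at 0 in every library. Their annotated spans lie entirely inside another gene's span, A930015D03Rik for H2-T23 and H2-T24, Vamp1 for Tapbpl, Gm16156 for Psmb10 and BC051537 for H2-Oa, and reads in overlapping spans were counted for neither gene. The light chain B2m, which completes every class I molecule, was at 0 too. A value of 0 here does not show that the gene is silent. Ciita shared 63.6% of its span with Dexi and Psmb8 57.3% with Gm20496, so their counts come from the rest of the span. The heavy chains H2-K1, H2-D1, H2-Q4, H2-Q6, H2-Q7 and H2-T22 are near-identical in parts, so reads could be assigned to the wrong one and their single values are uncertain. Counting used no strand, so reads of antisense transcripts cannot be told apart from those of the gene.

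The counts per library summed to 30.6 M to 44.3 M. Slit1 itself, at 24.4 ± 16.1 CPM (counts scaled to a common library total) in unstressed LacZ and 19.8 ± 10.2 in stressed LacZ mice, was at 25.9 ± 17.5 and 18.2 ± 9.80 in the unstressed and stressed knockdown-label mice (SD, n = 7 each), so no consistent reduction of Slit1 was seen under the knockdown label, and directions given for it below follow the label only. The part of Slit1 that the virus targets is not in the labels, and these counts cover the whole gene span with its introns. Markers of cortical excitatory neurons, the labelled tissue, were counted in every library, with summed levels of 253 to 1472 CPM. Most of the variation between libraries (58.8% on the leading principal component) followed each library's GC slope, the change of its log2 CPM per 10 percentage points of gene GC content (absolute r = 0.996), which ran from -1.17 to 1.21. Stressed LacZ replicate 4 had the lowest summed T cell markers (13.8 CPM, median of all libraries 108.7) and stressed knockdown-label replicate 2 had 2421 CPM of bone and osteoclast markers against a median of 19.99. Lanes are not assigned to libraries in the labels.

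No single member of either class passed the test in any comparison, and the classes as such were not tested. Among 19171 genes tested with edgeR's quasi-likelihood test and Benjamini-Hochberg adjustment, 0 of the 30 members and 0% of all genes were called at an adjusted p under 0.05 in each of 7 comparisons, namely the knockdown label against LacZ in unstressed and in stressed mice, stress in LacZ and in knockdown-label mice, the interaction, and the averages over stress and over virus. The members' adjusted p-values were all 1.00 after rounding. DESeq2 called 0 members and 0 genes in every comparison too. At an unadjusted p under 0.05, edgeR had 0 members in the knockdown-label comparison without stress (0.897% of all genes), 0 with stress (0.824%), 1 for stress in LacZ mice (0.402%), 1 for stress in knockdown-label mice (1.79%), 0 for the interaction (0.355%), 0 for the knockdown label averaged over stress (1.52%) and 1 for stress averaged over virus (2.21%). DESeq2 had 1, 0, 1, 1, 0, 0 and 1 members in the same order, against 253, 175, 123, 473, 73, 373 and 606 of all genes. In tests on simulated data of the unstressed knockdown-label comparison, 36% of 100 genes changed 2-fold and 77% of 100 genes changed 4-fold were recovered. The changed genes were drawn at random from all genes tested, while the members varied more between libraries than most genes. These shares are thus not measured for the members, and a 2-fold change in a member could be missed.

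**Figure D1:**
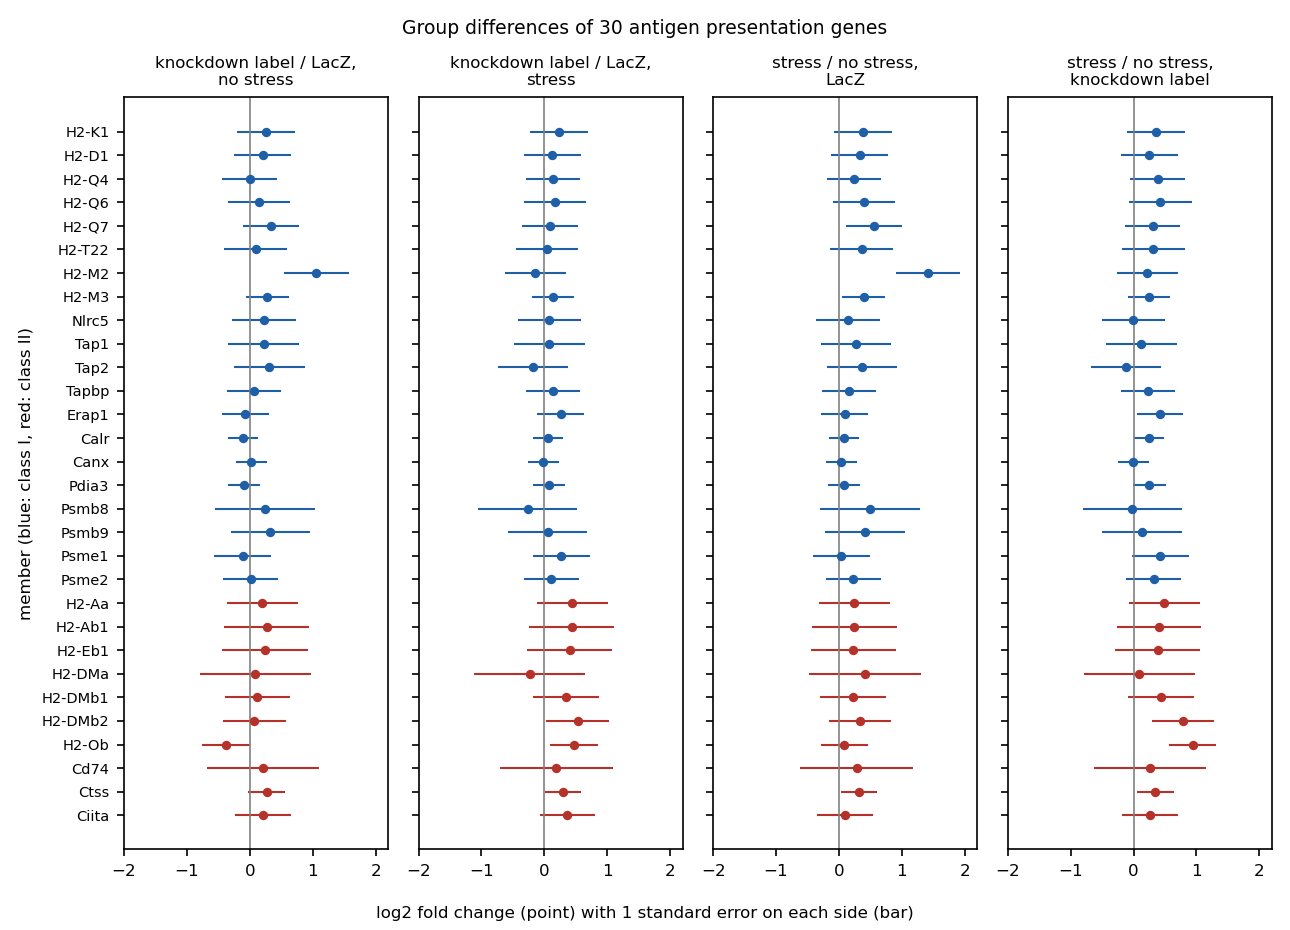
Log2 fold change of each of the 30 counted members (horizontal axis) in the 4 simple comparisons (panels), with bars of 1 standard error of the edgeR fit, n = 7 libraries per group; class I and class II members have different colours. Most points lie to the right of 0 and most bars cross it; H2-M2 under stress in LacZ mice (1.41) is the farthest right.

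Although no member passed the test, the fitted fold changes of both classes lay mostly above 0. Under stress in LacZ mice, 20 of 20 class I members and 10 of 10 class II members had a log2 fold change above 0, with medians of 0.30 and 0.24, against 45.5% of all genes and a median of -0.01. The median standard errors of the members were 0.45 and 0.54, larger than these medians. One library carried this direction: without stressed LacZ replicate 2 the medians were -0.05 and -0.16, with 8 of 20 and 3 of 10 members above 0. Without stressed LacZ replicate 4, the library poor in T cell markers, they were 0.49 and 0.45. By the group mean of log2 CPM, the members did not all lie above 0 for stress in LacZ mice. Nlrc5, Tap1, Psmb8, Psme1, H2-Ab1, H2-Eb1, Cd74 and Ciita were lower in stressed LacZ mice on that measure, and the other counted members higher.

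Under stress in knockdown-label mice, 16 of 20 class I and 10 of 10 class II members lay above 0, with medians of 0.25 and 0.40, against 47.5% of all genes and a median of -0.01. The peptide exchange genes had the highest median of any role, 0.61. The 4 class I members below 0 were Tap2 (-0.12), Psmb8 (-0.02), Nlrc5 (-0.01) and Canx (-0.00). Without unstressed knockdown-label replicate 5 the class medians were 0.14 and 0.22, and without replicate 6 of that group they were 0.40 and 0.72. Without stressed knockdown-label replicate 3, the class II median was 0.21 and 8 of 10 members lay above 0. The comparison shares no library with that in LacZ mice. The interaction of stress and label had class medians of -0.05 and 0.16, with standard errors of 0.64 and 0.77 at the median. In it, 8 of 20 and 8 of 10 members lay above 0, against 48.6% of all genes. Single libraries turned these interaction medians: without stressed LacZ replicate 2 they were 0.29 and 0.65, and without stressed LacZ replicate 4 they were -0.22 and -0.04. Without unstressed knockdown-label replicate 5 they were -0.21 and -0.04, without replicate 1 of that group 0.11 and 0.40, and without replicate 6 they were 0.11 and 0.49. With the GC slope as a covariate they were 0.17 and 0.35.

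For the knockdown label against LacZ in unstressed mice, 15 of 20 class I and 9 of 10 class II members lay above 0, with medians of 0.17 and 0.20, against 47.1% of all genes. Without unstressed knockdown-label replicate 1 the medians were -0.02 and -0.07, and without replicate 6 they were 0.00 and -0.14. With the GC slope as a covariate they were -0.05 and 0.09, with 8 of 20 and 6 of 10 members above 0. By mean log2 CPM, class II lay lower under the label without stress, against the sign of the fitted median. It was 3.41 ± 1.44 in unstressed knockdown-label and 3.52 ± 0.97 in unstressed LacZ mice (SD). Class I was at 4.72 ± 0.87 and 4.70 ± 0.65. In stressed mice, 16 of 20 and 9 of 10 members lay above 0, with medians of 0.08 and 0.38, against 42.3% of all genes. Without stressed LacZ replicate 4 the class I median was -0.04, with 4 of 20 members above 0, and the class II median was 0.19. Without stressed LacZ replicate 2 the medians were 0.40 and 0.76, and without stressed knockdown-label replicate 3 they were -0.01 and 0.21.

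Averaged over both viruses, stress had class medians of 0.26 and 0.33, with 20 of 20 and 10 of 10 members above 0, against 46.3% of all genes. Without stressed LacZ replicate 2 they were 0.12 and 0.11, with 16 of 20 and 8 of 10 members above 0. Averaged over stress, the knockdown label had medians of 0.10 and 0.28, with 17 of 20 and 9 of 10 members above 0, against 44.1% of all genes. Without stressed LacZ replicate 4 these were 0.02 and 0.19, with 12 of 20 and 8 of 10 above 0, and without stressed LacZ replicate 2 they were 0.29 and 0.42. Without unstressed knockdown-label replicate 1 they were 0.03 and 0.20, without its replicate 6 they were 0.07 and 0.13, and without stressed knockdown-label replicate 3 they were 0.04 and 0.14. Most members varied together across libraries, so these counts are not of independent genes and carry no test. Without both libraries that stand apart, the stress medians were 0.49 and 0.45 in LacZ mice and 0.34 and 0.45 in knockdown-label mice.

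In every library the mean level of class I lay above that of class II, by 0.36 to 2.34 on the log2 CPM scale. The class I mean over its 20 members was 4.70 ± 0.65 in unstressed LacZ, 4.83 ± 1.00 in stressed LacZ, 4.72 ± 0.87 in unstressed knockdown-label and 5.16 ± 0.43 in stressed knockdown-label mice (log2 CPM, SD, n = 7 each). The class II mean over its 10 members was 3.52 ± 0.97, 3.59 ± 1.20, 3.41 ± 1.44 and 4.22 ± 0.67 in the same order. Both classes were thus highest on average in the stressed knockdown-label group, by less than 1 SD of the other groups, and all groups overlapped. The difference of class I minus class II was 1.18 ± 0.56, 1.23 ± 0.31, 1.31 ± 0.62 and 0.95 ± 0.42. These are mean levels of different genes and do not compare the amounts of the 2 kinds of molecule. The order also depends on which members are averaged. Over all libraries the class I heavy chains alone were at 4.25 ± 0.84 and the class II chains with Cd74 at 4.93 ± 1.47 (SD), the reverse order. The chaperones Calr, Canx and Pdia3, which belong to the class I set, were at 8.18 ± 0.25.

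**Figure D2:**
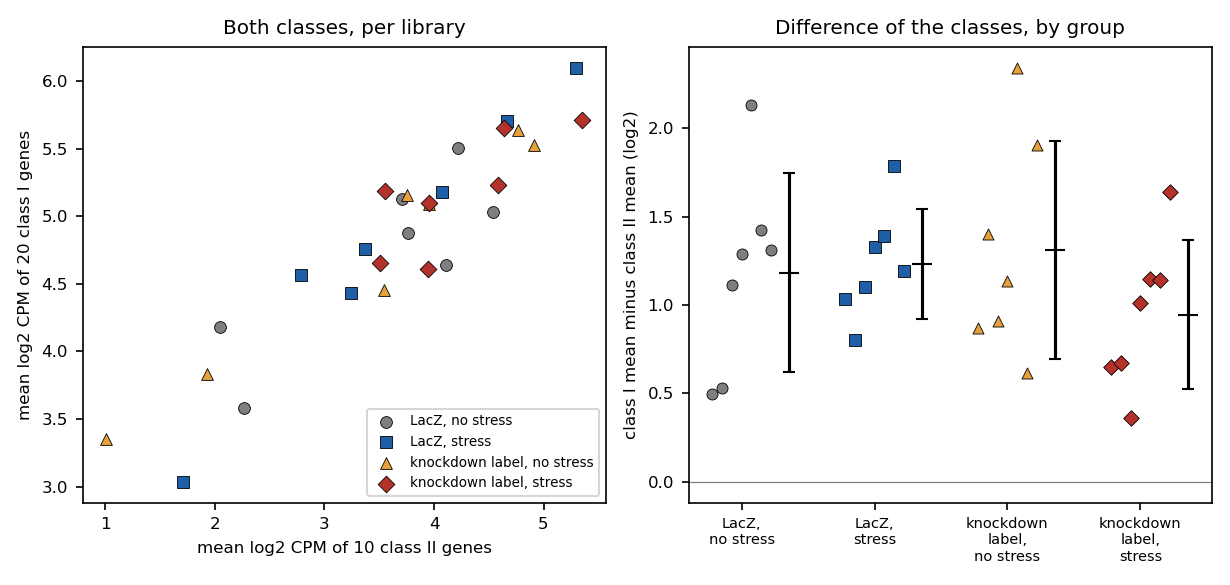
Left, mean log2 CPM of the 10 class II members (horizontal axis) and of the 20 class I members (vertical axis), 1 point per library, coloured by group. Right, the difference class I minus class II by group, points for libraries and bars for the mean ± SD of 7. The same libraries lie low or high on both axes, and the difference is smallest in stressed knockdown-label replicate 3 (0.36) and largest in unstressed knockdown-label replicate 5 (2.34).

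The 2 classes ranked the libraries in much the same order. The 5 libraries lowest in class I, namely stressed LacZ replicate 4, unstressed knockdown-label replicates 5 and 7 and unstressed LacZ replicates 5 and 7, were the same 5 that were lowest in class II, and 4 of the 5 highest were shared. Stressed LacZ replicate 2 was the highest of all 28 libraries for 20 of the 30 members. Stressed LacZ replicate 4 was the lowest for 11 members, including H2-K1, Nlrc5, Tap1 and Ciita, and unstressed knockdown-label replicate 5 for 9, including Cd74 and all 3 class II chains. By the mean CPM, 15 of 20 class I and 9 of 10 class II members were highest in the stressed knockdown-label group and 15 and 9 were lowest in unstressed LacZ. By the median CPM the highest group was again stressed knockdown label for 15 and 9 members, but the lowest was stressed LacZ for 11 and 7.

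**Figure D3:**
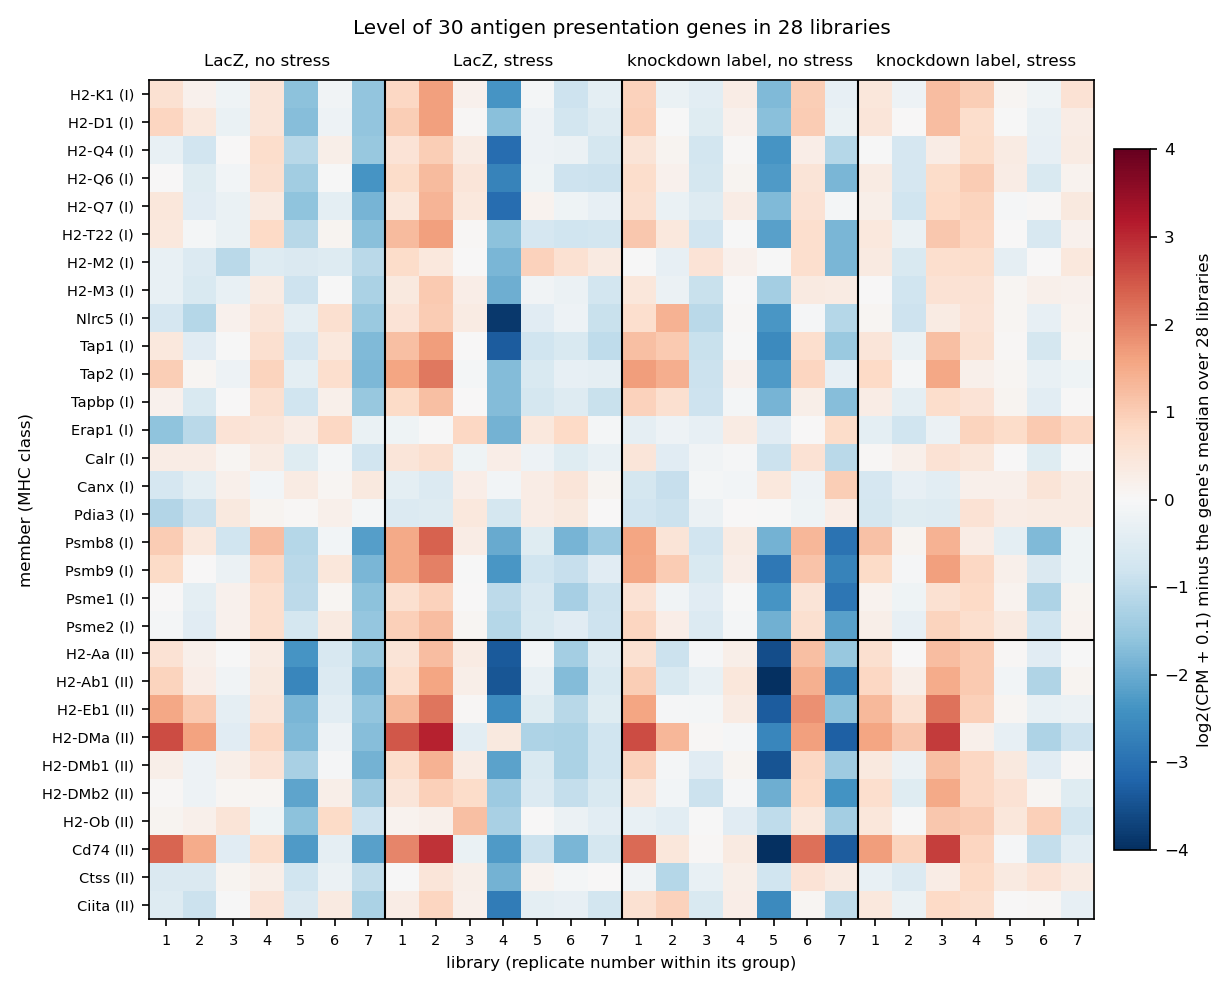
Heat map of the 30 counted members (rows, class I above class II) in the 28 libraries (columns, by group), as log2(CPM + 0.1) minus the gene's median over the libraries, with colours ending at 4 in each direction. Whole columns are high, such as stressed LacZ replicate 2, or low, such as stressed LacZ replicate 4 and unstressed knockdown-label replicate 5, in both classes, while the chaperone rows Calr, Canx and Pdia3 stay pale.

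The members varied more between libraries than most genes. The SD of log2 CPM over the 28 libraries had a median of 0.55 over all genes tested and exceeded 1 in 13.8% of them. In class I its median was 0.95 and 6 of 20 members exceeded 1, and in class II it was 1.18 and 7 of 10 did. Cd74 (1.85) and H2-DMa (1.73), an exchange factor chain, varied the most, and the 3 chaperones, which serve many glycoproteins, the least (median 0.46). The spread within a group was of the same order as that over all libraries, and in bulk tissue fewer cells of a type and less RNA per cell cannot be told apart.

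The classical class I heavy chains H2-K1 (ENSMUSG00000061232, chr17:33996017-34000333, minus strand) and H2-D1 (ENSMUSG00000073411, chr17:35262730-35267499, plus strand) present peptide to CD8 T cells. H2-K1 ran from 42.4 to 203 CPM (median 121) in unstressed LacZ, 26.1 to 412 (median 127) in stressed LacZ, 39.2 to 266 (median 111) in unstressed knockdown-label and 115 to 311 (median 181) in stressed knockdown-label mice. The stressed knockdown-label group lacked the low libraries of the other 3 but overlapped all of them. Its log2 fold changes were 0.38 ± 0.46 for stress in LacZ and 0.35 ± 0.46 in knockdown-label mice (SE). H2-D1 ran from 32.4 to 192 CPM (median 93.4), 33.6 to 337 (median 91.7), 33.1 to 217 (median 105) and 87.2 to 252 (median 130.0) in the same order of groups. As for H2-K1, all groups overlapped and the stressed knockdown-label group had the highest median and the highest minimum, with fold changes of 0.33 ± 0.45 and 0.25 ± 0.45 for stress.

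Of the non-classical heavy chains, H2-Q7 and H2-M3, which presents formylated bacterial peptides, were among the 3 smallest p for stress in LacZ mice. H2-Q7 ran from 3.96 to 20.1 CPM (median 11.2) in unstressed LacZ, 1.68 to 37.9 (median 16.2) in stressed LacZ, 4.24 to 23.03 (median 13.9) in unstressed knockdown-label and 8.46 to 27.2 (median 17.5) in stressed knockdown-label mice. The stressed LacZ group held both the lowest and the highest library, and the fold change for stress in LacZ mice was 0.55 ± 0.44 (adjusted p = 1.00 by edgeR). H2-M3 ran from 5.19 to 15.8 CPM (median 10.1), 3.17 to 26.1 (median 11.5), 4.81 to 17.2 (median 12.7) and 7.14 to 18.8 (median 14.2), with all groups overlapping and a fold change of 0.39 ± 0.34 (adjusted p = 1.00 by edgeR). H2-Q4, H2-Q6 and H2-T22 had group medians of 35.7 to 54.1, 29.4 to 40.6 and 21.8 to 39.7 CPM, the highest again in stressed knockdown-label mice.

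H2-M2, a non-classical chain at chr17:37480851-37483552 (minus strand), had the smallest p of any member and was the member with an unadjusted p under 0.05 for stress in LacZ mice and averaged over virus, at very low counts of at most 24 per library. It ran from 0.0681 to 0.188 CPM (median 0.142) in unstressed LacZ, 0 to 0.573 (median 0.379) in stressed LacZ, 0 to 0.468 (median 0.255) in unstressed knockdown-label and 0.136 to 0.482 (median 0.361) in stressed knockdown-label mice. Unstressed LacZ was the narrowest and lowest group, and 6 of 7 stressed LacZ libraries lay above its mean, with replicate 4 at 0, a count that allows up to 0.0680 CPM (3 counts). In unstressed knockdown-label replicate 7, also at 0, the same 3 counts would be 0.158 CPM. The log2 fold change for stress in LacZ mice was 1.41 ± 0.51 (adjusted p = 1.00 by edgeR), and for the knockdown label without stress 1.06 ± 0.52 (adjusted p = 1.00 by edgeR). Stress averaged over virus gave 0.81 ± 0.35 (adjusted p = 1.00 by edgeR) and the interaction -1.20 ± 0.70 (adjusted p = 1.00 by edgeR). Leaving out any library kept the stress difference in LacZ mice between 1.27 and 1.64.

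The class I transactivator Nlrc5 (chr8:94434356-94527272, plus strand) ran from 37.1 to 162 CPM (median 80.5) in unstressed LacZ, 7.07 to 210.2 (median 90.6) in stressed LacZ, 20.9 to 275 (median 102) in unstressed knockdown-label and 59.1 to 153 (median 111) in stressed knockdown-label mice. The stressed knockdown-label group was the tightest and lay inside the range of the unstressed one. Its fold changes were between -0.01 ± 0.50 and 0.22 ± 0.50 over the 4 simple comparisons.

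The transporter subunit Tap1 (ENSMUSG00000037321, chr17:34187553-34197225, plus strand) ran from 10.03 to 53.3 CPM (median 34.1), 3.33 to 108 (median 22.6), 5.77 to 79.1 (median 34.1) and 20.9 to 78.3 (median 35.8) in unstressed LacZ, stressed LacZ, unstressed and stressed knockdown-label mice. The medians of 3 groups were nearly equal and that of stressed LacZ was lower, although stressed LacZ replicate 2 was the highest of all libraries. The fold change for stress was 0.27 ± 0.56 in LacZ and 0.13 ± 0.56 in knockdown-label mice. Its partner Tap2, the loading factor Tapbp (tapasin) and the trimming peptidase Erap1 had group medians of 5.72 to 7.996, 35.3 to 54.2 and 91.6 to 176 CPM, with median fold changes of these 4 genes between 0.11 and 0.21 over the simple comparisons.

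The immunoproteasome subunit Psmb8 (chr17:34197721-34201454, plus strand), counted over the part of its span that is free of Gm20496, ran from 0.0683 to 1.73 CPM (median 0.619), 0.0906 to 3.85 (median 0.453), 0 to 2.21 (median 0.871) and 0.129 to 1.93 (median 0.725) in the same order. Every group spanned more than a 10-fold range, including a count of 0 in unstressed knockdown-label replicate 7, and its fold changes, -0.27 ± 0.79 to 0.49 ± 0.79, had large errors. The subunit Psmb9 and the proteasome activators Psme1 and Psme2 had group medians of 7.36 to 12.2, 24.6 to 42.2 and 17.7 to 29.0 CPM, all lowest in stressed LacZ mice.

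The chaperones Calr, Canx and Pdia3 had group medians of 156 to 185, 565 to 706 and 233 to 317 CPM. Of the 4 simple comparisons, their fold changes lay between -0.11 and 0.08 in all but stress in knockdown-label mice, where Pdia3 had 0.25 and the median of the 3 was 0.25.

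The class II alpha chain H2-Aa (ENSMUSG00000036594, chr17:34282744-34287827, minus strand) ran from 12.5 to 96.5 CPM (median 64.1) in unstressed LacZ, 6.25 to 153 (median 60.5) in stressed LacZ, 5.49 to 148 (median 61.9) in unstressed knockdown-label and 47.4 to 153 (median 66.5) in stressed knockdown-label mice. The 4 medians were close, and the stressed knockdown-label group differed by having no library under 47.4 CPM. All 7 of its libraries lay above the mean log2 level of stressed LacZ and of unstressed knockdown-label mice, with fold changes of 0.44 ± 0.56 and 0.49 ± 0.56. The beta chains H2-Ab1 and H2-Eb1 had group medians of 23.4 to 34.1 and 14.6 to 31.5 CPM, the lowest in stressed LacZ and the highest in stressed knockdown-label mice.

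The invariant chain Cd74 (ENSMUSG00000024610, chr18:60803848-60812646, plus strand) had the widest spread of log2 CPM over the libraries of all members. It ran from 6.95 to 169.6 CPM (median 25.9) in unstressed LacZ, 6.91 to 252 (median 20.7) in stressed LacZ, 1.82 to 161 (median 43.0) in unstressed knockdown-label and 17.2 to 228 (median 60.6) in stressed knockdown-label mice. The median of stressed knockdown-label mice was the highest, but every group overlapped every other over most of its range, and the fold changes were 0.19 to 0.28 with standard errors of 0.89.

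Ctss (ENSMUSG00000038642, chr3:95526786-95556403, plus strand), which microglia also use for general proteolysis, ran from 222 to 526.5 CPM (median 297), 119 to 616 (median 451), 202 to 651 (median 398) and 303 to 776 (median 556) in the same order. The medians of both stressed groups lay above those of the unstressed group of the same virus, and all groups overlapped. The fold changes were 0.32 ± 0.29 for stress in LacZ, 0.35 ± 0.29 for stress in knockdown-label mice, 0.27 ± 0.29 and 0.30 ± 0.29 for the knockdown label, and 0.33 ± 0.21 for stress averaged over virus (adjusted p = 1.00 by edgeR).

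Among the peptide exchange genes, H2-Ob encodes a chain of the H2-O inhibitor of H2-DM, and it was the member with an unadjusted p under 0.05 for stress in knockdown-label mice. It ran from 0.667 to 4.03 CPM (median 2.49) in unstressed LacZ, 0.884 to 5.51 (median 2.32) in stressed LacZ, 0.843 to 3.17 (median 1.69) in unstressed knockdown-label and 1.34 to 5.02 (median 3.20) in stressed knockdown-label mice. The 2 knockdown-label groups overlapped, with 6 of 7 stressed libraries above the mean of the unstressed. The fold change for stress in knockdown-label mice was 0.94 ± 0.38 (adjusted p = 1.00 by edgeR) and in LacZ mice 0.09 ± 0.38, and the interaction was 0.85 ± 0.53 (adjusted p = 1.00 by edgeR), so a difference between the viruses was not shown. Leaving out any library kept the former between 0.83 and 1.13.

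H2-DMb2, a beta chain of the exchange factor, ran from 0.281 to 1.86 CPM (median 1.59), 0.498 to 3.095 (median 1.03), 0.211 to 2.76 (median 1.42) and 1.06 to 4.59 (median 2.34) in unstressed LacZ, stressed LacZ, unstressed and stressed knockdown-label mice. The stressed knockdown-label group was highest by its median and lowest library and overlapped the rest. Stress in knockdown-label mice gave 0.79 ± 0.50 (adjusted p = 1.00 by edgeR). H2-DMa and H2-DMb1 had group medians of 2.12 to 3.31 and 5.31 to 10.5 CPM.

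The class II transactivator Ciita (chr16:10488178-10527564, plus strand) ran from 2.32 to 8.42 CPM (median 3.93), 0.725 to 10.4 (median 4.53), 0.891 to 10.8 (median 5.95) and 4.56 to 9.96 (median 5.83) in the same order. As for H2-Aa, the stressed knockdown-label group lacked low libraries and had a median close to that of another group. The fold change for the knockdown label averaged over stress was 0.29 ± 0.31 (adjusted p = 1.00 by edgeR).

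**Figure D4:**
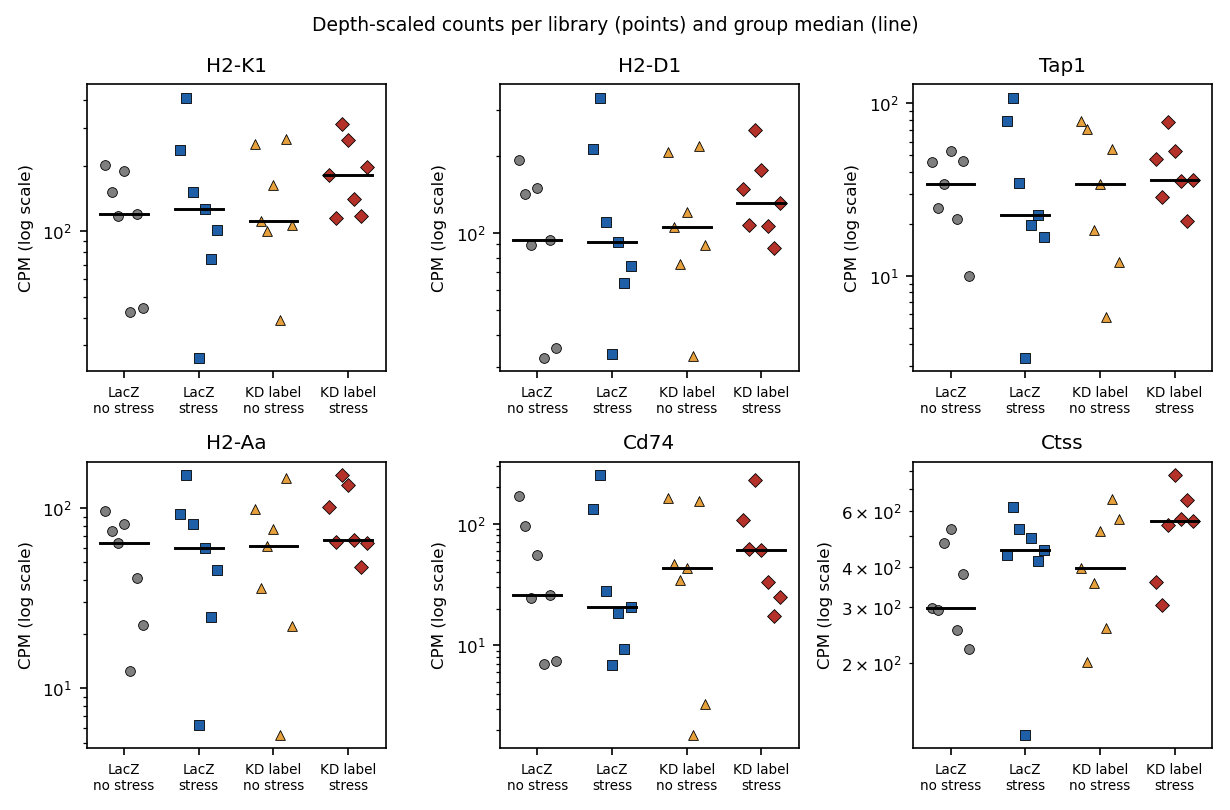
CPM (log axis) of H2-K1, H2-D1, Tap1, H2-Aa, Cd74 and Ctss, 1 point per library in the 4 groups of 7, with a line at each group's median. In each panel the groups overlap, and the lowest points of the stressed knockdown-label group lie above the lowest points of the other groups.

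In none of the 4 simple comparisons did the groups of any of the 30 members separate without overlap, against 0.00522% of all genes for the knockdown label without stress, 0.00522% with stress, 0% for stress in LacZ and 0.00522% for stress in knockdown-label mice.

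Levels of different genes can be set side by side only per length. Per kilobase of exon, with all counts of the span included, the mean over 28 libraries was highest for Ctss (321 CPM per kb), Canx (134), Pdia3 (79.2), Calr (62.8), H2-K1 (53.0), H2-D1 (48.6), Cd74 (38.9) and H2-Aa (18.2), and lowest for H2-M2 (0.174). Per kilobase of the whole span H2-K1 came first (36.04 CPM per kb), then Calr (35.6), H2-D1 (26.3), Canx (19.8) and Ctss (14.7). The orders differ since the same counts, introns included, were divided by exon length or by span length. Exons make up 4.59% of the span of Ctss and 68.1% of that of H2-K1.

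Most members varied together across libraries, within and between the classes. With group means removed over 28 libraries, log2 CPM of the other 29 members had a median r of 0.85 with Cd74, and 24 of them exceeded 0.5, against 37.6% of all genes. With Tap1 the median r was 0.86 and 26 of 29 exceeded 0.5, against 23.3% of all genes. H2-K1 and Cd74, 1 gene of each class, had r = 0.86 and rho = 0.85 (permutation p = 1e-05 for both, the smallest that 100000 permutations can give, adjusted p = 2.2e-05 and 2.4e-05 over 118 relations) and r = 0.87 without the 2 farthest libraries. The libraries share depth, composition and dissection between the genes, so the relation is one between libraries.

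Relations to markers of other cells and to library composition were measured in the same way. With Cd3e, a T cell receptor component, the members' median r was 0.65 and 25 of 30 exceeded 0.5, against 8.82% of all genes. Cd74 had r = 0.62 and rho = 0.57 with Cd3e (permutation p = 0.00044 and 0.0017, adjusted p = 0.00067 and 0.0025) and r = 0.51 without the 2 farthest libraries. Those 2 were stressed LacZ replicate 4 and unstressed knockdown-label replicate 5. Without them some members fell below 0.5, among them Tap1 (0.66 to 0.35), Nlrc5 (0.65 to 0.22) and Ciita (0.69 to 0.33). Others stayed above it, among them H2-K1 (0.81 to 0.67) and H2-Aa (0.87 to 0.78). The relation to Cd3e thus rested in part on these libraries. With the GC slope the median r was 0.57 and 19 of 30 exceeded 0.5, against 38.3% of all genes. Of class I 12 of 20 and of class II 7 of 10 exceeded 0.5, while Ctss (r = -0.20), H2-Ob (r = 0.27) and Ciita (r = 0.33) of class II did not (permutation adjusted p = 0.33, 0.18 and 0.099). H2-DMa (r = 0.97) and Cd74 (r = 0.85) followed the slope upward most closely, while Canx (r = -0.95), Pdia3 (r = -0.87) and Erap1 (r = -0.68) followed it downward, each with a permutation p of at most 5e-05 (adjusted p at most 9.1e-05). Their rho were 0.97, 0.87, -0.96, -0.77 and -0.65, with a permutation p of at most 0.00031 (adjusted p at most 0.00053). Without the 2 farthest libraries these r were 0.96, 0.82, -0.94, -0.84 and -0.60. Of the 118 relations, 27 with Cd74, 27 with Tap1, 26 with Cd3e and 22 with the GC slope had an adjusted p under 0.05 by permutation. The share of all genes under that threshold was not computed, so these counts do not set the members apart from other genes.

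**Figure D5:**
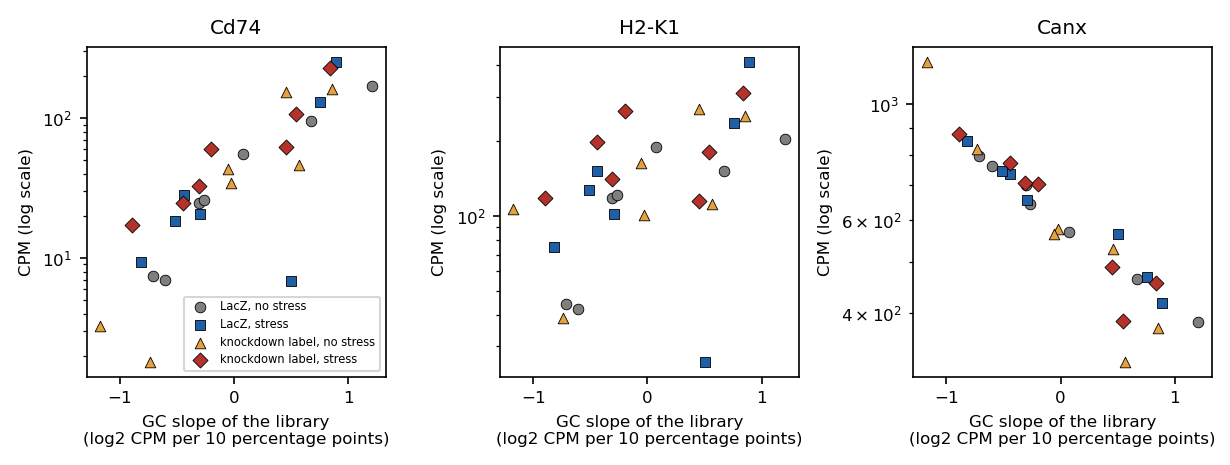
CPM (log axis) of Cd74, H2-K1 and Canx in the 28 libraries against the library's GC slope (log2 CPM per 10 percentage points of GC), coloured by group. Cd74 climbs with the slope, H2-K1 climbs less evenly and Canx descends, and all 4 groups are spread along most of the axis.

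With the GC slope removed from both genes, an alternative added after the data were seen, some relations changed and others did not. That of H2-K1 and Cd74 went from 0.86 to 0.91, and that of Cd74 and Cd3e from 0.62 to 0.89. Erap1, at -0.26 with Cd74 before, had 0.84 after, and Ctss went from 0.29 to 0.89. Canx went from -0.82 to -0.09.

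Summed markers of other cell types were measured in the same libraries. The summed T cell markers, all 10 counted, had group medians of 85.7, 107, 135 and 163 CPM in unstressed LacZ, stressed LacZ, unstressed and stressed knockdown-label mice, with ranges of 24.3 to 159.5, 13.8 to 244, 18.1 to 217 and 66.7 to 259.6. The microglia markers, 9 of 10 counted with P2ry12 at 0, had medians of 326, 345, 411 and 445 CPM and ranges of 187 to 646, 243 to 748, 227 to 709.7 and 336 to 769.7. Both lists thus had the same order of medians, with the stressed knockdown-label group highest, and overlapping ranges. B and plasma cell markers, 5 of 6 counted with Ms4a1 at 0, ran from 2.53 to 81.0 CPM over all libraries and were highest in stressed knockdown-label replicate 3, the library with the highest class II mean. Dendritic cell markers ran from 41.3 to 90.1 CPM, border and perivascular macrophage markers from 9.91 to 44.6, with the highest sum in stressed LacZ replicate 4, the library lowest in class I, neutrophil markers from 0.0683 to 17.9, endothelial markers from 57.5 to 126, with the highest group median in unstressed LacZ (92.3), and striatal neuron markers from 11.9 to 73.3. Their part in the members' levels was not tested.

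The summed level of 12 interferon-stimulated genes ran from 206 CPM in stressed LacZ replicate 4, the library lowest in class I, to 4772 in stressed knockdown-label replicate 6. Its group medians were 3287, 2651, 1846 and 3888 CPM in the order above, with overlapping ranges. Its group means were 2444 ± 1698, 2463 ± 1478, 1855 ± 767 and 2989 ± 1598 CPM (SD). The means had the same order of groups as the class II means and another order than the class I means, but the medians had neither order. Both LacZ means differed by far less than their SDs, so the match of orders carries no weight. Stressed knockdown-label replicate 6, with the highest sum, ranked 11 from the lowest in class I and 9 in class II. Whether this sum goes with either class across libraries was not tested.

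Of 34 other genes of the pathway, 31 were tested, B2m and Irf8 were at 0 and Ifi30 did not pass the filter. None was called in any comparison by edgeR, and only Ifngr1, a chain of the interferon gamma receptor, had an unadjusted p under 0.05, for stress averaged over virus. Ifngr1 ran from 20.4 to 59.6 CPM (median 36.2) in unstressed LacZ, 17.6 to 81.5 (median 47.0) in stressed LacZ, 31.2 to 68.3 (median 41.6) in unstressed knockdown-label and 31.3 to 91.5 (median 69.4) in stressed knockdown-label mice. Both stressed groups had higher medians than their unstressed counterparts and overlapped them, and the averaged stress difference was 0.45 ± 0.20 (adjusted p = 1.00 by edgeR). Its signalling kinase Jak1 had 0.15 ± 0.08 and the costimulatory molecule Cd80 0.46 ± 0.28 in the same comparison. For stress, 22 of 31 pathway genes lay above 0 in LacZ mice, 25 in knockdown-label mice and 26 averaged over virus, with medians of 0.10, 0.19 and 0.14. Of all genes, 45.5%, 47.5% and 46.3% lay above 0 in the same order.

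For the knockdown label, 15 of 31 pathway genes lay above 0 without stress, 18 with stress and 17 averaged over stress, with medians of -0.00, 0.05 and 0.01. Of all genes, 47.1%, 42.3% and 44.1% lay above 0 in the same order. The proteasome activator Psme3 had -0.21 ± 0.13, the endosomal protease Ctsl 0.26 ± 0.18 and the chaperone Hspa5 -0.27 ± 0.21 without stress. With stress, the smallest p among them belonged to Ifngr1 (0.33 ± 0.29), the translocon subunit Sec61b (0.24 ± 0.29) and Ctsl (0.14 ± 0.18). For the interaction, 19 of 31 lay above 0, against 48.6% of all genes, with Hspa5 at 0.38 ± 0.30 and the proteasome subunit Psmb7 at 0.12 ± 0.11. Averaged over stress, the regulator Nfyb had -0.12 ± 0.10 for the knockdown label. None of these was called.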

How the data were processed

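The authors deposited raw counts of read pairs per gene for each of the 28 libraries, produced by featureCounts 1.6.2 from the full span of each gene in the Ensembl 90 annotation of GRCm38, with duplicates removed and no strand option set, per the file headers. HISAT2, Subread and DESeq2 are named in the submitters' processing notes, without versions. Whole-span counting includes introns, and a read pair in overlapping genes counted for neither. Symbols and exonic lengths came from GENCODE M21.

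After filterByExpr and TMM scaling, all 28 libraries entered 1 robust quasi-likelihood fit of edgeR 4.0.16 (R 4.3.3) with a term for each group, and p-values were Benjamini-Hochberg adjusted over 19171 genes. DESeq2 1.42.0 was an alternative. CPM used TMM-scaled totals (30.6 M to 44.3 M counts before scaling), and log2 CPM a prior count of 2. The tests were checked on simulated data. Relations used 100000 permutations (two-sided). P-values measure the spread between individual mice.

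Members, gene lists and tests were chosen with earlier results of these data known. By rule, values per group were given for 9 members and, since none was called, for the 3 members and 3 other pathway genes with the smallest p in each comparison. Alternatives covered the tool, normalization, filter, groups fitted, covariates and each library left out. A planned comparison of heavy chain proteins was not run.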

Additional observations from a re-analysis of the deposited data

Results flagged for a closer look

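In 4 of 132 combinations of a gene or class mean and a group, 1 library stood apart from the other 6 of its group. Chance alone flags about 1 in 20, so there were no more flags than chance would give. Stressed knockdown-label replicate 3 was the highest of its group for H2-DMa, at 20.5 CPM with the next library at 8.74, and for Cd74, at 227.5 CPM with the next at 107.8. This library also had the highest class II mean of all 28. Stressed LacZ replicate 3 was the highest of its group for H2-Ob, at 5.51 CPM with the next at 2.70. Stressed LacZ replicate 4 was the lowest of its group for Ctss, at 119.1 CPM with the next at 417 CPM. Without stressed LacZ replicate 3, the log2 fold change of H2-Ob for stress in LacZ mice was -0.23 in place of 0.09, with no call in either case.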

How the results depend on the processing

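0 members and 0 genes were called in each of the 7 comparisons under every one of the 37 settings, and the lowest adjusted p of any member was 0.443 (H2-M2, stress averaged over virus, with the GC slope as covariate in edgeR). The direction was less steady than the calls: 498 of 7461 fold changes of members under the alternatives and 21 of 498 class medians, which have no test, had the opposite sign to the main value. With the GC slope as covariate, the class I and class II medians for stress were 0.15 and 0.27 in LacZ mice and 0.34 and 0.65 in knockdown-label mice, and for the knockdown label -0.05 and 0.09 without stress and 0.20 and 0.48 with stress. With the title number above 20 as covariate, which the labels do not call a batch, they were 0.31 and 0.33, 0.13 and 0.16, 0.41 and 0.56, and 0.15 and 0.43 in the same order. No paired analysis was possible because each mouse has its own number in the labels, and replicate numbers, given here in accession order, pair no mice across groups. The GC slope went with that order only in part. It was 0.45 to 1.21 in replicates 1 and 2 of all 4 groups and -1.17 to -0.30 in replicates 5 and 7. Replicates 3, 4 and 6 each held both signs. Their values ran from -0.89 in stressed knockdown-label replicate 6 to 0.84 in replicate 3 of that group. The fit with the GC slope as covariate is the one that takes account of the slope. Low counts limited the precision of H2-M2 (at most 24 per library) and Psmb8.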
